A study of Mus musculus with 6 samples.

Results

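Filaggrin and its relatives are large repeat proteins of the outer epidermis and the hair follicle that carry an S100-type calcium-binding domain at their amino end, and they are described here together with the proteases Casp14 and Asprv1, which act on filaggrin. The set was fixed by name as Flg, Flg2, Hrnr, Rptn, Tchh, Tchhl1, Casp14 and Asprv1, and every probe set carrying one of these symbols was taken. Of these 8 genes, 7 were measured, by 10 probe sets, among 18193 genes and 45037 probe sets that were no controls. Flg2 is not analysed here. RNA came from whole back skin of 6 female littermates on postnatal day 2.5, on a mixed FVB/N and C57BL/6 background. In 3 mice, K5cre-caNrf2 (tg/tg), Cre driven by the keratin 5 promoter switched on Nrf2 that is always active (caNrf2), a transcription factor, in keratinocytes. The other 3, K5cre-wt (tg/wt), carried Cre without the active Nrf2 and served as controls. The genotype entries of the caNrf2 samples read tg/g where the series design has tg/tg, and the treatment entry names CaNrf2 for all 6 samples, so groups were taken from the titles. The titles name transgene or wildtype. All 6 also carry the word strong, which is not interpreted here. Each mouse gave 1 array. The transgene acts in keratinocytes, while whole skin also holds dermis, fat, muscle and vessels.

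Keratinocytes of the granular layer store profilaggrin in keratohyalin granules. As the cells cornify, profilaggrin is dephosphorylated and cut into filaggrin units, which bundle keratin filaments, and filaggrin is later broken down to the amino acids that hold water in the stratum corneum. Hornerin and repetin are envelope proteins with a like domain plan, and trichohyalin hardens the inner root sheath and medulla of the hair. Nrf2 is the transcription factor that switches on detoxification and antioxidant genes, and the comparison of both genotypes asks which transcripts differ when it is always active in keratinocytes.

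The 5 measured S100-fused genes lie next to each other on mouse chromosome 3, in the RefSeq order Flg, Hrnr, Rptn, Tchh and Tchhl1. Casp14 lies on chromosome 10 and Asprv1 on chromosome 6. RefSeq upstream sequence (build GRCm38.p6) was at hand for all 8 genes, and the 250 bases before each annotated start were searched on both strands. The core bound by AP-1 factors has G or C in the middle (TGAGTCA or TGACTCA), and it was searched here with any base there, as TGANTCA. In this form it reads the same on both strands. It was found in 4 of the 8 windows, those of Flg, Flg2, Rptn and Tchhl1, against 6.75% of 32851 such windows over all genes. None of these 4 matches held G or C in the middle. TATAAA was found in Flg, Hrnr and Rptn, against 12.4% of all windows. TGACNNNGC, the core of the element that Nrf2 binds, was found in 1 window, that of Casp14, against 10.2% of all windows. The stretches around TGANTCA are shown because Tchhl1, the member that fell, and Flg, whose groups overlapped, both hold these letters. Likeness of the bases around them was not measured. Each begins 15 bases before the match, and capitals mark TGANTCA and, further on, TATAAA.
Flg, chr3:93273428-93273517, plus strand: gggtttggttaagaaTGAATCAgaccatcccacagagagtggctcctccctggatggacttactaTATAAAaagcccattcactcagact
Flg2, chr3:93197189-93197272, plus strand: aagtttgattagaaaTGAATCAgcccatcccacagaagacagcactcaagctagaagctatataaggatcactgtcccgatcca
Rptn, chr3:93393588-93393677, plus strand: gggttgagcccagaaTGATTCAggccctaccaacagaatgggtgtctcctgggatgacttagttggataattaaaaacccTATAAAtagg
Tchhl1, chr3:93468652-93468741, plus strand: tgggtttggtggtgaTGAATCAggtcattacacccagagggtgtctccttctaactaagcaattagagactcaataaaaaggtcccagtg

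The match began 103 bases before the annotated start in Flg, 69 in Flg2, 96 in Rptn and 87 in Tchhl1. The matched letters were TGAATCA in Flg, Flg2 and Tchhl1 and TGATTCA in Rptn, which is TGAATCA read on the other strand. These are matches of letters and no measure of binding.

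The array values are linear intensities per probe set, which the authors summarised with RMA, and all tests used their log2 values. Calls were made in limma where p, adjusted by Benjamini-Hochberg over all 18193 genes, was under 0.05. Nfe2l2, which codes for Nrf2, read 825, 726 and 774 in control replicates 1 to 3 and 1136, 1222 and 1242 in caNrf2 replicates 1 to 3, which is 0.63 ± 0.07 higher on the log2 scale (SE; limma, adjusted p = 0.000736). Its other probe set, dim at 18.0 in control and 20.2 in caNrf2 skin, gave 0.16, and the mean of both gave 0.40 (adjusted p = 0.00738). Whether either also sees the transgene was not tested. The 6 Nrf2 targets Nqo1, Srxn1, Gclc, Gclm, Txnrd1 and Hmox1 all rose, by 1.22 to 4.41 on the log2 scale. The labels thus went with the array values. Of basal keratinocyte markers 5 of 5, of suprabasal markers 5 of 5 and of fibroblast markers 5 of 5 did not pass, with group means from 539 to 20647. Adipocyte, muscle and endothelial markers also gave no call among 3, 4 and 4 measured genes. The skin of both groups carried signal for these cell types. Of 5 immune markers, 1 rose, 0 fell and 4 did not pass, where 2.26% of all genes were called higher. The summed intensity of these markers ran from 1034 to 1160 in control and from 1028 to 1107 in caNrf2 arrays. The riser was Cd207, a marker of Langerhans cells, at 0.36 ± 0.08 (SE; limma, adjusted p = 0.036). It was dim, with group means of 54.9 in control and 70.8 in caNrf2 skin. Of Y-linked genes, which gauge background in these female mice, only Sry came near this, at 54.7 and 61.6. The Sry probe set may also match other sequences, and the next gene, Usp9y, reached 33.6. Whichever array was left out, the Cd207 call did not hold (adjusted p from 0.0521 to 0.109). Actb probe sets at the 3' over the 5' end, a sign of RNA quality, had a log2 ratio of 0.493 ± 0.012 in control and 0.525 ± 0.011 in caNrf2 arrays (SD, n = 3), and its part in the results was not tested.

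Of the 7 measured genes, 1 fell, 0 rose and 6 did not pass. Over all genes tested 3.65% were called, 1.39% as lower and 2.26% as higher, so the share of members called lower, 1 of 7, rests on a single gene. The member that fell was Tchhl1. The median log2 fold change of the 7 was 0.11, against -0.00 over all genes, with 5 of the 7 estimates above zero. Control and caNrf2 arrays did not overlap in 4 of the 7 genes, 3 of them higher and 1 lower in caNrf2 skin, where 25.7% of all genes showed no overlap, 12.7% as higher and 13.0% as lower. An unadjusted p under 0.05 was reached by 3 members, Tchhl1, Rptn and Hrnr, of which only Tchhl1 passed after adjustment. The share of all genes under this unadjusted cut-off was not counted, so the count of members has nothing to be set against.

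**Figure D1:**
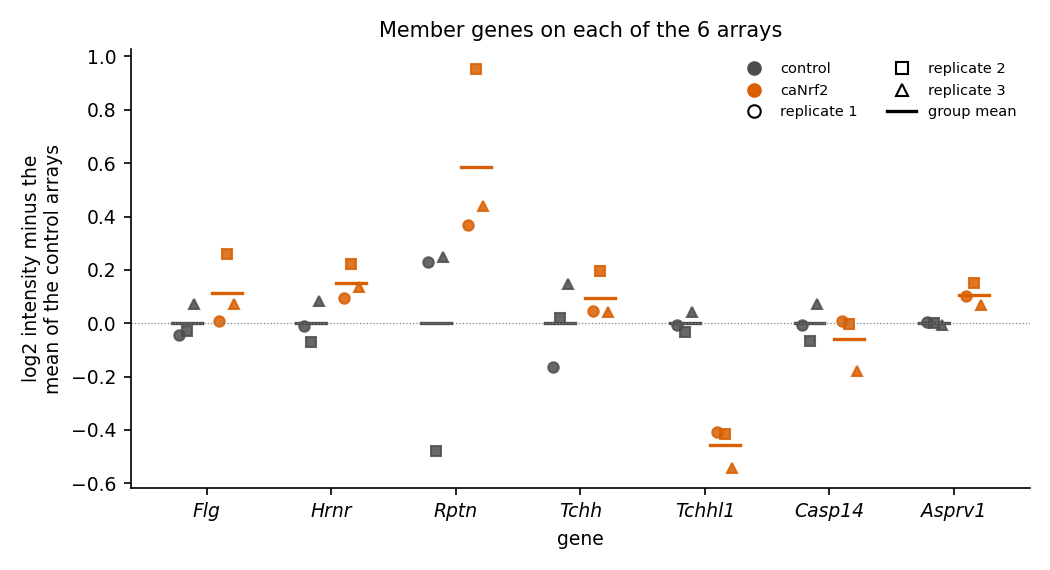
Each point is 1 array, plotted as log2 intensity minus the mean of the 3 control arrays, for the 7 measured genes. Marker shapes give the replicate number, which was not taken to pair arrays, and bars give group means. Tchhl1 lies at about the same level in all controls and lower in every caNrf2 array. Rptn has the widest spread in both groups, and Flg, Tchh and Casp14 overlap between the groups.

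Flg codes for profilaggrin, the founding protein of the family. Its probe set 1427268_at read 9643, 9755 and 10458 in the control arrays and 10014, 11912 and 10465 in the caNrf2 arrays. The groups overlapped, with caNrf2 replicate 2 highest. Means were 9952 ± 442 and 10797 ± 992 (SD, n = 3), and the log2 fold change was 0.11 ± 0.08 (SE; limma, adjusted p = 0.429). The 95% interval of the fold ran from 0.962 to 1.22. The probe sets of Flg, Hrnr, Tchh and Asprv1 were among the brightest on the array, between percentiles 99.1 and 99.6 of all probe sets. Whether signal was compressed there was not tested, so their intervals, and those of brighter keratins and loricrin, hold for intensity and need not bound a change in RNA. Profilaggrin is a chain of near-identical units, so a probe may match 1 transcript at several places.

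Hrnr codes for hornerin, a glycine- and serine-rich envelope protein with filaggrin-like repeats. It read 5925, 5687 and 6324 in control skin and 6373, 6959 and 6560 in caNrf2 skin. Every caNrf2 array was above every control, though caNrf2 replicate 1 exceeded control replicate 3 by little. The log2 fold change was 0.15 ± 0.07 (SE) and did not pass (limma, adjusted p = 0.238; unadjusted p = 0.0464). The interval of the intensity fold ran from 1.002 to 1.23. Whether hornerin and filaggrin probes see each other's transcripts was not tested.

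Rptn codes for repetin, an envelope precursor with glutamine-rich repeats of keratinocytes. Its brightest probe set, 1420431_at, read 423, 259 and 429 in control skin and 466, 699 and 490 in caNrf2 skin. Control replicate 2 stood well below the other controls and caNrf2 replicate 2 well above the other caNrf2 arrays. The groups still did not overlap, but the lowest caNrf2 array lay only slightly above the highest control. The log2 fold change was 0.59 ± 0.20 (SE), with a fold interval from 1.10 to 2.06, and it did not pass (limma, adjusted p = 0.148). Without control replicate 2 the estimate was 0.35 (limma, adjusted p = 0.248).

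Repetin had 2 further probe sets, both dim. Probe set 1433210_at averaged 20.8 ± 0.210 in control and 23.4 ± 1.0007 in caNrf2 skin, and 1433211_at averaged 10.9 ± 0.387 and 12.7 ± 0.771 (SD, n = 3). These levels lie within the 8.35 to 61.6 spanned by the group means of 6 Y-linked genes in these female mice, which gauge background. Both were higher without overlap, at log2 fold changes of 0.17 and 0.22, and neither passed among all probe sets (limma, adjusted p = 0.228 and 0.161). The 6 Y-linked genes, which these mice lack, had log2 fold changes from -0.0016 to 0.173, with a median of 0.10. Probe set 1433210_at lay within this range and 1433211_at above it, though another probe set of the Y-linked Kdm5d gave 0.39. The part of background in these shifts was not tested.

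Tchh codes for trichohyalin, which stiffens the inner root sheath and the medulla once it is deiminated and cross-linked. It read 6893, 7818 and 8543 in control skin and 7972, 8838 and 7960 in caNrf2 skin. The control arrays alone spanned nearly the whole range, and the groups overlapped. The log2 fold change was 0.09 ± 0.09 (SE; limma, adjusted p = 0.569), with a fold interval from 0.935 to 1.22.

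Tchhl1, trichohyalin-like 1, is a less studied relative whose gene adjoins Tchh. Its only probe set, 1429944_at, read 773, 758 and 799 in control skin and 586, 582 and 533 in caNrf2 skin. All 3 caNrf2 arrays lay below all 3 controls, and the gap between the groups was wider than the spread within either. Means were 777 ± 20.5 and 567 ± 29.5 (SD, n = 3), and the difference on the log2 scale was -0.45 ± 0.06 (SE; limma, adjusted p = 0.00335). The fold was 0.730, with an interval from 0.662 to 0.804. Whichever of the 6 arrays was left out, the call held, with adjusted p between 0.0104 and 0.0207. In a bulk sample, fewer cells of a type and less RNA per cell cannot be told apart.

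To set Tchhl1 beside the other members, ratios were taken within each array. Tchhl1 was chosen because it was the member called on these same arrays, and every ratio shares its values. The log2 ratio of Tchhl1 to Tchh within an array was -0.55 apart between the groups, at -3.31 ± 0.14 in control and -3.86 ± 0.09 in caNrf2 skin (SD, n = 3). Against each of the other 6 members the ratio of Tchhl1 was lower in all caNrf2 arrays than in all controls, by 0.40 (Casp14) to 1.04 (Rptn). Each of these 6 comparisons had an exact two-sided permutation p of 0.1, also 0.1 after Benjamini-Hochberg adjustment. That is the smallest that 3 against 3 arrays can give, so no comparison could pass. Given the choice of Tchhl1, the ratios describe these arrays and are no separate evidence for its fall.

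Keratins of the hair follicle were set beside Tchhl1. Of 7 measured inner root sheath keratins, 2 fell, 0 rose and 5 did not pass, where 1.39% of all genes were called lower. The median log2 fold change of these keratins was -0.22, and all 7 estimates were below zero. Their summed intensity ran from 52929 to 54328 over control arrays and from 45516 to 47316 over caNrf2 arrays. Krt26 fell by 0.53 ± 0.08 and Krt72 by 0.33 ± 0.07 on the log2 scale (SE; limma, adjusted p = 0.00425 and 0.0325), and the Krt72 call did not hold when caNrf2 replicate 2 or 3, or control replicate 1 or 2, was left out, with adjusted p as high as 0.126. Of 8 hair shaft keratins none passed, with 0 higher and 0 lower and a median of -0.22. The nearest was Krt35, at -0.25 (adjusted p = 0.0549), and Krt83 gave -0.35 (adjusted p = 0.124). The shaft keratins summed to between 22258 and 27062 in control and between 21102 and 22658 in caNrf2 skin. Melanocyte markers gave 1 fall among 5, Mlana (-0.38 ± 0.09; adjusted p = 0.0463), and with single arrays left out that call held only in the absence of control replicate 3. All 5 melanocyte estimates were below zero, from -0.38 to -0.16, with a median of -0.20. Their summed intensity ran from 10777 to 11484 in control and from 9254 to 10172 in caNrf2 arrays. The part of follicle content in the Tchhl1 result was not tested. All 15 follicle keratins had estimates below zero. Tchh, itself a follicle gene, gave 0.09 with a fold interval from 0.935 to 1.22, so its direction is not settled.

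**Figure D2:**
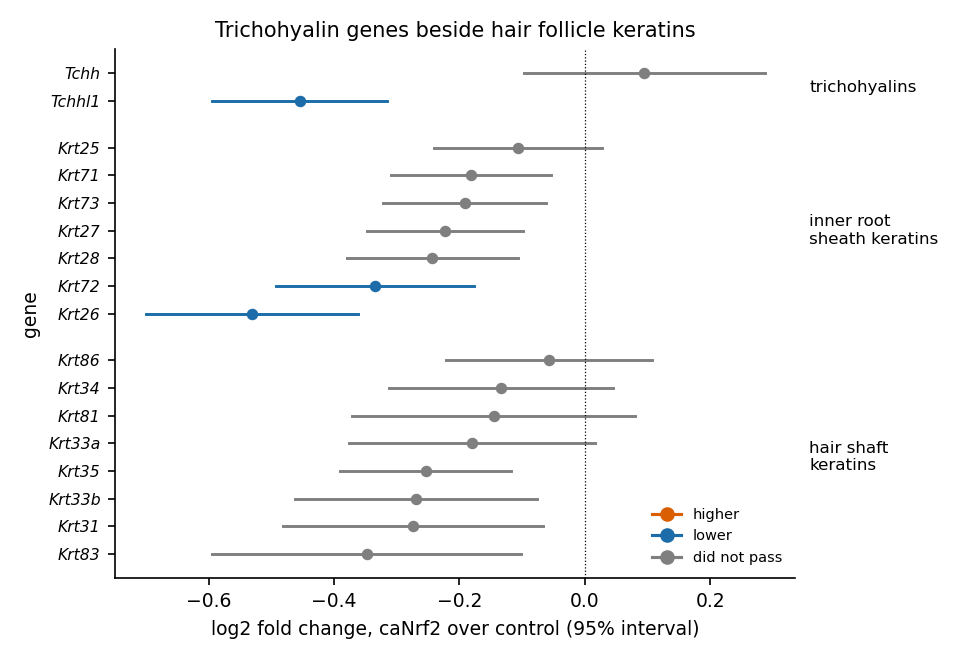
Log2 fold change of caNrf2 over control with its 95% interval from limma (n = 3 arrays per group), for both trichohyalin genes, 7 inner root sheath keratins and 8 hair shaft keratins. Colours give the call at an adjusted p under 0.05. Tchhl1, Krt26 and Krt72 are lower, all other keratins lie below zero without passing, and Tchh lies slightly above zero with an interval that includes zero.

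Casp14 codes for caspase-14, a protease of cornifying keratinocytes that takes part in the breakdown of filaggrin. Its brighter probe set, 1418748_at, read 2852, 2741 and 3016 in control skin and 2886, 2861 and 2531 in caNrf2 skin. The groups overlapped, and the lower caNrf2 mean came from replicate 3. The log2 fold change was -0.06 ± 0.07 (SE; limma, adjusted p = 0.689), with a fold interval from 0.860 to 1.07, and without caNrf2 replicate 3 it was 0.0032. A dimmer probe set, 1443787_x_at, whose suffix marks probes that may also match other sequences, gave 0.14 ± 0.08 and did not pass either (adjusted p = 0.413 among all probe sets). The probe sets thus differed in sign.

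Asprv1 codes for the skin aspartic protease that cuts the linkers between filaggrin units. It read 8768, 8749 and 8687 in control skin and 9381, 9703 and 9154 in caNrf2 skin. The controls lay close together, and all caNrf2 arrays were above them. The log2 fold change was 0.11 ± 0.06 (SE) and did not pass (limma, adjusted p = 0.312), with a fold interval from 0.988 to 1.18. Of the 6 members that did not pass, 5 had an intensity fold interval wholly within 1.5-fold either way. Rptn was the exception. The share of all genes with such an interval was not counted, so this is not shown to be particular to the members.

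Over every probe set of the members, fitted among all 45037, 1 of 10 was lower and 0 were higher, where 1.68% of all probe sets were called. That probe set was again the one of Tchhl1 (limma, adjusted p = 0.00863).

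Other enzymes that handle filaggrin gave 1 call. In this list 9 genes were measured, of which 1 rose, 8 did not pass and 0 fell, with a median log2 fold change of -0.00. Capn1, the catalytic subunit of calpain-1, which can cut deiminated filaggrin, read 828, 850 and 778 in control and 1106, 1135 and 1146 in caNrf2 skin. All caNrf2 arrays were higher, by 0.46 ± 0.06 on the log2 scale (SE; limma, adjusted p = 0.00229), and its other probe set gave 0.41. The membrane proteases Prss8 (-0.04) and St14 (-0.16), the proprotein convertase Furin (0.12), the kallikreins Klk5 (-0.09) and Klk7 (0.01), the peptidase Blmh (0.12) and Hal, which turns filaggrin-derived histidine into urocanic acid (-0.03), did not pass.

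Deimination and cross-linking act on filaggrin and trichohyalin after translation. Of 7 measured enzymes, 1 rose, 0 fell and 6 did not pass, with a median of -0.02. Tgm3, the transglutaminase that cross-links trichohyalin and envelope proteins, read 706, 614 and 653 in control and 853, 923 and 868 in caNrf2 skin. The groups did not overlap, and the log2 fold change was 0.42 ± 0.07 (SE; limma, adjusted p = 0.0101), with 0.35 at its other probe set. The deiminases Padi3 and Padi4 were lower in all caNrf2 arrays without passing, at -0.25 and -0.24 (adjusted p = 0.0718 and 0.0636). Padi2 went the other way, higher in all caNrf2 arrays without passing, at 0.17 (limma, adjusted p = 0.225). It was dim, with group means of 58.8 in control and 66.25 in caNrf2 skin. Tgm1 and Padi1 gave -0.02 and -0.01. Of 5 inhibitors of stratum corneum proteases, 1 rose, 0 fell and 4 did not pass. The serpin Serpinb12 rose by 0.31 ± 0.06 (adjusted p = 0.0287), but its other probe set gave 0.11, and its call was kept only without control replicate 3 among single arrays left out. Spink5, the inhibitor of Klk5, gave 0.06.

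Filament and envelope partners differed among themselves. Among 10 genes there were 1 rise and 2 falls, while 7 did not pass, and the median was 0.04. Krt2, among those that did not pass, read 9.25 in control and 10.1 in caNrf2 skin. That lies within the 8.35 to 61.6 of the Y-linked genes, so a change in Krt2 could not be judged. Sprr1b (0.36) and Cdsn (0.19) were higher in all caNrf2 arrays without passing (limma, adjusted p = 0.0745 and 0.106), and Sprr1a gave -0.08. Krt1 and Krt10, whose filaments filaggrin bundles, gave 0.04 each, and loricrin (Lor), the main envelope protein, gave 0.01. These probe sets averaged 17934 to 20326, close to the highest intensity on an array (20444 to 21290). The other probe sets of Lor gave 0.09, at a control mean of 11065, and -0.15, at 44.9. The envelope precursor Ivl fell by 0.55 ± 0.08, with 0.60 at its other probe set, and the suprabasal keratin Krt77 fell by 0.61 ± 0.08 (SE; limma, adjusted p = 0.0043 and 0.00326). Kprp, a proline-rich keratinocyte protein, rose by 0.31 ± 0.06 (adjusted p = 0.0165), a call that did not hold when caNrf2 replicate 3 or control replicate 1 or 2 was left out, with adjusted p as high as 0.0733.

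Among 16 transcription factors with a role in granular-layer differentiation, 1 rose, 0 fell and 15 did not pass, with a median of -0.05. Ppard, a nuclear receptor that responds to fatty acids, read 350, 323 and 311 in control and 614, 656 and 709 in caNrf2 skin. Its log2 fold change was 1.01 ± 0.07 (SE; limma, adjusted p = 4.58e-05), while a dim second probe set, at 38.6 in control skin, gave 0.22. Klf4 (-0.05), Grhl3 (0.14), Ovol1 (-0.04), Trp63 (-0.06), Ahr (0.02) and Arnt (-0.10) did not pass. Ppara (-0.23), Gata3 (-0.21), Pou2f3 (-0.18) and Grhl1 (-0.14) were lower in all caNrf2 arrays, also without passing (limma, adjusted p from 0.061 to 0.243). Grhl3 was higher in all caNrf2 arrays. Over these 5 lists together, 5 of 47 genes were called higher and 2 lower, and 40 did not pass. Over all genes 2.26% were called higher and 1.39% lower.

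**Figure D3:**
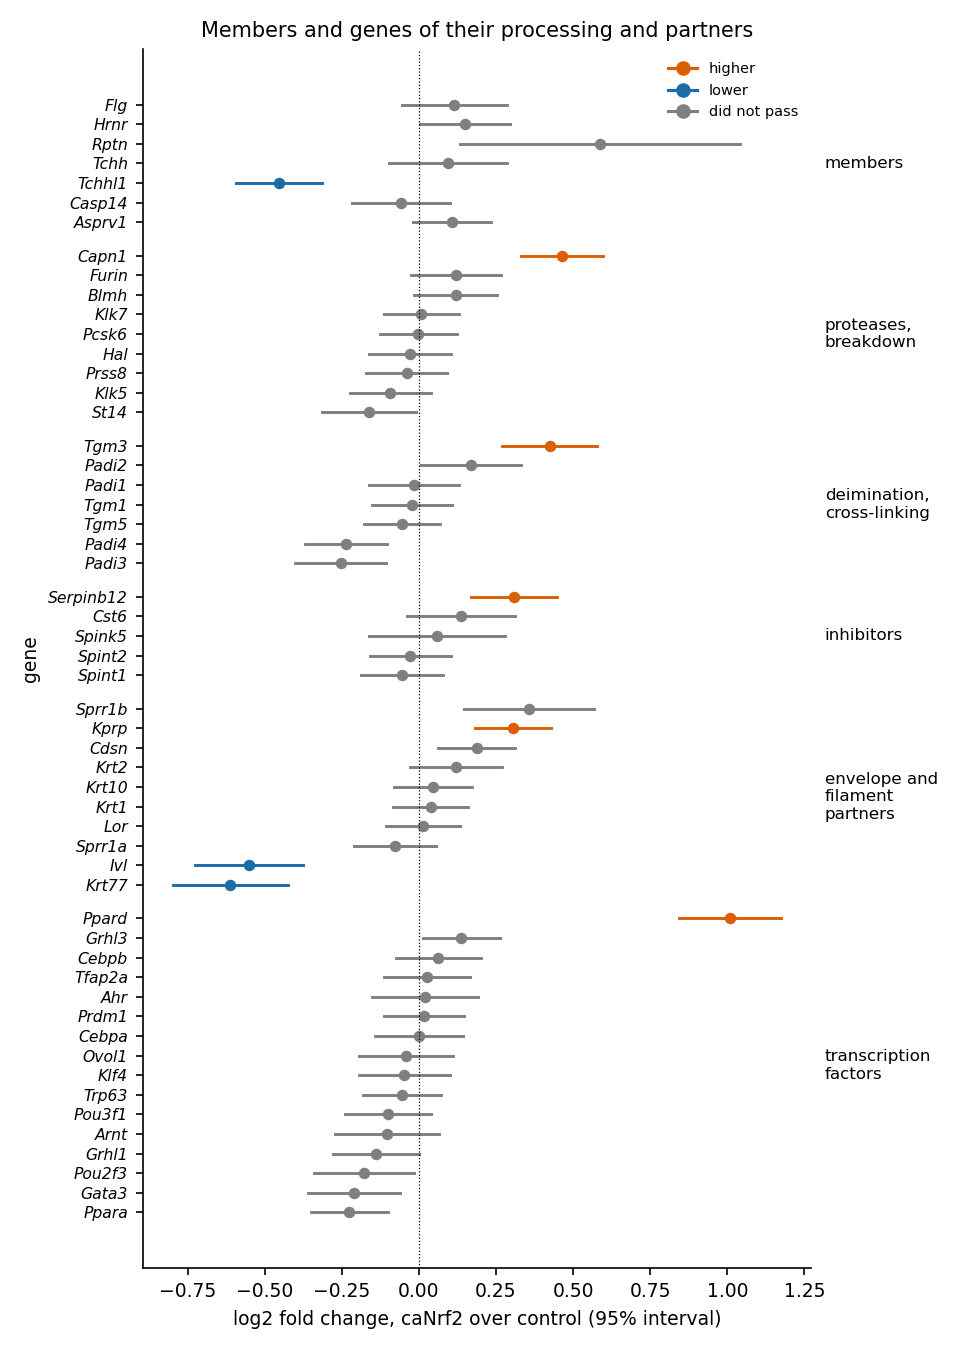
Log2 fold change of caNrf2 over control with its 95% interval from limma (n = 3 arrays per group) for the 7 members and 47 genes of filaggrin processing, cross-linking, inhibition, envelope partners and transcription factors. Colours give the call at an adjusted p under 0.05. Tchhl1 is the member that is lower, Ppard stands furthest to the right at 1.01, and Krt77 furthest to the left at -0.61.

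The S100-fused genes were set beside their measured neighbours on the chromosome, 5 on each side. Of these 10 neighbours 2 rose, 0 fell and 8 did not pass, where 2.26% of all genes were called higher and 1.39% lower. The risers were Lce3c (0.49 ± 0.07) and Lce3f (0.63 ± 0.07), late cornified envelope genes beyond Flg (SE; limma, adjusted p = 0.00671 and 0.000729). Lce1m, the nearest measured gene on the Flg side, gave -0.08. S100a10, an S100 gene and the nearest on the Tchhl1 side, gave 0.05 (adjusted p = 0.734). Tchhl1 was the single gene called lower along these 15 genes.

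**Figure D4:**
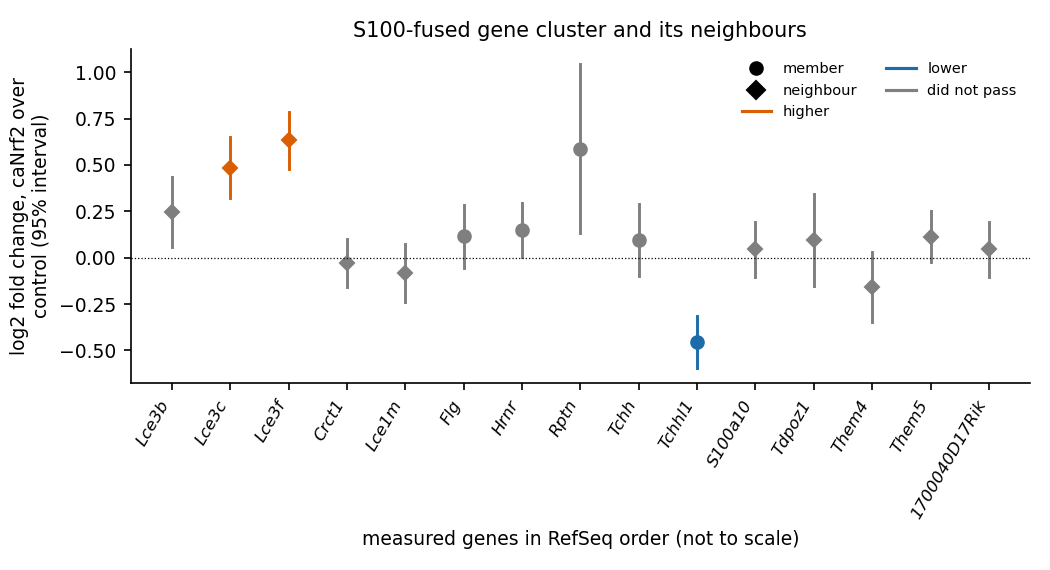
Log2 fold change of caNrf2 over control with its 95% interval from limma (n = 3 arrays per group) for 15 measured genes in RefSeq order, not to scale. Circles are the 5 measured S100-fused genes and diamonds their neighbours. Lce3c and Lce3f are higher, Tchhl1 is lower, and the intervals of Flg and Tchh include zero.

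The genes whose values over the 6 arrays were most like those of Tchhl1, by Euclidean distance of log2 profiles centred on their own means, were Map2k6, Dzip1 and Cybrd1, at distances of 0.114, 0.116 and 0.116. Only genes with a mean intensity of at least 100 were considered. Map2k6 is a MAP kinase kinase, and Cybrd1 a ferric reductase. Their log2 fold changes were -0.38, -0.38 and -0.42. The likeness is a description over 6 arrays from both genotypes.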

How the data were processed

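The deposited values are probe set intensity on a linear scale, 1 array per mouse, made by the authors with RMA per the submitters' processing notes. The version is not given in the sources used here. RMA equalises array distributions (median intensity 80.3 to 81.6), so a shift of most transcripts could not be seen. The number of arrays limits the precision. Per the labels' protocols, cRNA was made from 2 ug of RNA. Groups came from the sample titles.

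Symbols were updated through Entrez identifiers with RefSeq (34741 of 34945 single-symbol probe sets matched). The probe set with the highest mean log2 intensity stood for a gene. Log2 values were fitted with limma 3.58.1 (R 4.3.3; group as the only term; two-sided p; Benjamini-Hochberg over all genes), tested on simulated data first. Intervals are 95% and unadjusted. All probe sets were fitted apart. The members, the gene lists and the tests were chosen with earlier results of these data known. The genes named are all members, Nfe2l2 and its targets, the called genes of each list or else those of smallest p, RefSeq neighbours, and the nearest profiles to a called member. Other list genes named with values were chosen for their role. Lists of other cell types are given by range. Replicate numbers were not taken to pair the samples. Alternatives were another probe set rule, moderation, array weights, normalization, an offset of 16, a filter at 50, a replicate block and each array left out.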

Additional observations from a re-analysis of the deposited data

How the results depend on the processing

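The Tchhl1 call was kept in all 8 alternatives that kept every array, at log2 fold changes from -0.45 to -0.42 and adjusted p from 0.000129 to 0.0182, and with each array left out. No other member passed in any of these 14 settings, where Rptn ranged from 0.33 to 0.71. The estimate of Casp14 was not called and turned to 0.0401 with the mean of its probe sets. With single arrays left out it ran from -0.0913 to 0.0032. The count of 664 called genes was 1022 with an intensity trend and robust variances and ran from 298 (without control replicate 1) to 507 with single arrays left out, with 430, 411 and 339 without caNrf2 replicates 1, 2 and 3. The 7 calls in the pathway lists became 12 with the trend and 11 with a filter at a mean intensity of 50. For samples of the same number, deviations from the group mean correlated at 0.033, 0.13 and 0.093. For samples of different number these correlations ran from -0.15 to 0.070. Such values do not settle whether the numbers mark pairs, and the main fit did not take them as pairs. With the replicate block 589 genes, 1 member and 6 pathway genes were called.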
